A study of Rattus norvegicus with 16 samples.

Results

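The expression of 6 genes of GABA synthesis, packaging and transport was measured in the rat hippocampus after chronic mild stress. They are Gad1, Gad2, Slc32a1, Slc6a11, Slc6a13 and Abat, each measured by the 1 probe whose RefSeq target carries its name, so 6 probes of 24684 on the array and 6 of 13903 named genes. They were chosen by name, for their place in the GABA pathway, with earlier results of these data known. Each probe had a single spot. Hippocampal RNA of male Sprague-Dawley rats of 250 g was read on 16 single-colour arrays in 4 groups of 4, after removal of ribosomal RNA and random-primed labelling with Cy3. The depression-susceptible, anxiety-susceptible and insusceptible rats had 8 weeks of chronic mild stress, a run of small changing stressors, and the control rats had none; rats were assigned to stress or control at random with regard to sucrose intake before the stress. The labels do not state how stressed animals were sorted into the 3 outcomes, nor if each array stands for its own animal.

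GABA is the main inhibitory transmitter of the adult brain, and in the hippocampus local interneurons make most of it. Gad1 and Gad2 encode the 2 forms of glutamate decarboxylase, known as GAD67 and GAD65, which convert glutamate to GABA; the first is spread through the cell and the second sits mainly at nerve terminals. Slc32a1 encodes the vesicular transporter VGAT, which loads GABA into synaptic vesicles. After release, GABA is taken up by plasma membrane transporters, among them GAT-3 (Slc6a11), found mainly on astrocytes, and GAT-2 (Slc6a13), found mainly outside neurons, for example in the meninges. Abat encodes GABA transaminase, the mitochondrial enzyme that degrades GABA.

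The promoters of the 2 decarboxylase genes are shown because these genes encode enzymes with the same product and only Gad2 was called against control in the fit of 6 samples. Both are from the RefSeq promoter table of build GRCr8, which held 4 of the 6 genes (Gad1, Gad2, Slc32a1 and Slc6a11). Each stretch lies on the plus strand before the annotated gene start, and capitals mark matches to 1 of the 5 motifs searched on both strands. The table's window for Gad1 reaches into the annotated gene, so only its first 58 bases are printed.
Gad2, chr17:89671468-89671717: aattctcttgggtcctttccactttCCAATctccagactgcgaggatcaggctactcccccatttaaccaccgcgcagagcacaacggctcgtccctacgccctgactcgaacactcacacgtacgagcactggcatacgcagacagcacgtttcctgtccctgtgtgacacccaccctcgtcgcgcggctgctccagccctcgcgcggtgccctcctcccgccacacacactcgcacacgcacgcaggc
Gad1, chr3:75777202-75777259: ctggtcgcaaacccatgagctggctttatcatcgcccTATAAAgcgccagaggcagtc
The motifs were the TATA box (TATAAA), the GC box (GGGCGG), the CAAT box (CCAAT), the cyclic AMP response element (TGACGTCA) and the homeodomain core (TAATTA), none of which contains another. In the 250 bases before the table's start, Gad2 held 1 CCAAT match and none of the other 4, and Gad1 held 1 TATAAA and 1 GGGCGG match. The GGGCGG match of Gad1, 93 bases before the table's start, lies past the printed stretch and within the annotated gene. Of 27457 promoter windows of this length, 34.2% held CCAAT, 13.2% held TATAAA and 32.1% held GGGCGG. The cyclic AMP element was in 1.68% and the homeodomain core in 4.95% of all windows, and none of the 4 windows held either. A match describes letters only.

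Levels are log2 processed signals minus the 75th percentile of the array, so a value of 0 is the 75th percentile itself, and levels of different genes are not set against each other. There were 4 slides. On day 1 slides 1 and 2 were scanned, each with 2 depression-susceptible and 2 control arrays; slide 3 held the anxiety-susceptible and slide 4 the insusceptible arrays, scanned on day 2. That percentile lay at 1630 to 1916 in the scans of day 2 and at 4531 to 5293 in those of day 1, so members gave dimmer raw signals on the later day, as with Gad2 at 215 to 294 on day 2 and 970 to 1767 on day 1. Same-group arrays of a slide were apart by 0.584 to 0.840 times the noise of a probe's mean reckoned from its repeated spots. This was seen on 3897 probes with repeated spots, 37 of them mRNA probes, after each array's median offset was removed. The members, with 1 spot each, were not among these probes. Same-group arrays of a slide were averaged on this ground to 6 samples, 2 depression-susceptible, 1 anxiety-susceptible, 1 insusceptible and 2 control. Tests were made with limma on these 6 samples over all probes, with Benjamini-Hochberg adjusted p under 0.05 as the threshold for a call. Standard errors (SE) and p-values thus measure the spread between slides, not between animals, and the 2 groups with 1 sample are assumed to vary like the others. The share of all probes without overlap between the arrays of 2 groups is not given, so a lack of overlap below only describes the arrays. With the 16 arrays as separate samples, 49.3%, 71.5% and 72.8% of all probes were called in depression-susceptible, anxiety-susceptible and insusceptible rats against control. Only for depression-susceptible against control were both groups on the same slides. In all other comparisons group and slide cannot be told apart, nor can scan day, except between the anxiety-susceptible and insusceptible groups, which share it.

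**Figure D1:**
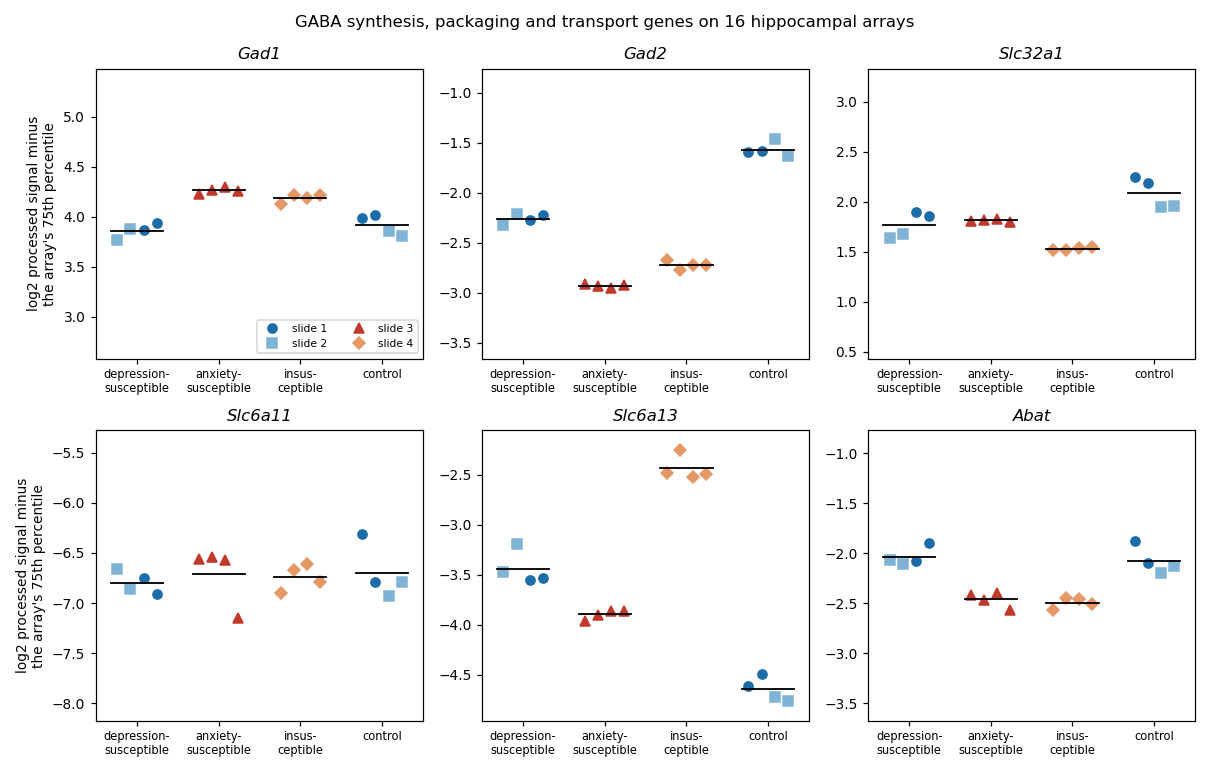
Log2 level (processed signal minus the array's 75th percentile) of the 6 genes on each of the 16 arrays, with colour and shape giving the slide and the line the group mean over its averaged samples; each panel spans the same number of log2 units. By group mean, Gad2 lies lower and Slc6a13 higher in each of the 3 stressed groups than in control.

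The decarboxylase gene Gad2 was lower in each stressed group than in control. Its level was -2.32, -2.21, -2.27 and -2.22 on the 4 depression-susceptible arrays, -2.91, -2.93, -2.96 and -2.92 on the anxiety-susceptible arrays, and -2.67, -2.77, -2.72 and -2.72 on the insusceptible arrays, against -1.59, -1.59, -1.46 and -1.63 on the control arrays. The order of the group levels was anxiety-susceptible, insusceptible, depression-susceptible and control, lowest first. Gad2 fell by 0.69 (SE 0.07, 1.61-fold lower, adjusted p = 0.0164, limma) in depression-susceptible rats. It fell by 1.36 (SE 0.09, 2.57-fold, adjusted p = 0.00689) in anxiety-susceptible and by 1.15 (SE 0.09, 2.22-fold, adjusted p = 0.00858) in insusceptible rats. These 3 comparisons share their control samples, and in bulk tissue fewer cells of a type and less RNA per cell cannot be told apart. On slide 1 the depression-susceptible sample differed from the control sample by -0.66, and on slide 2 by -0.72, so the difference was of like size on both slides. Depression-susceptible arrays sat at positions 3 and 4 of those slides and control arrays at positions 1 and 2. On the slides with 1 group, Gad2 at positions 3 and 4 differed from positions 1 and 2 by -0.02 (anxiety-susceptible) and by -0.01 (insusceptible). Without any 1 of the 2 depression-susceptible or 2 control samples, the depression-susceptible difference stayed between -0.71 and -0.67 but its adjusted p was 0.0936 to 0.137.

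Gad1, the other decarboxylase gene, did not follow Gad2. Its level was 3.76, 3.88, 3.87 and 3.93 on the depression-susceptible arrays, 4.23, 4.27, 4.30 and 4.26 on the anxiety-susceptible arrays, and 4.13, 4.21, 4.19 and 4.22 on the insusceptible arrays, against 3.99, 4.02, 3.86 and 3.80 on the control arrays. Arrays of the 2 groups scanned on day 2 lay above all others, and the depression-susceptible arrays overlapped the control arrays. The differences from control were -0.06 (SE 0.10, adjusted p = 0.745), 0.35 (SE 0.12, adjusted p = 0.103) and 0.27 (SE 0.12, adjusted p = 0.163) in depression-susceptible, anxiety-susceptible and insusceptible rats, and none passed. The 95% interval in depression-susceptible rats ran from -0.33 to 0.22. The size and in part the sign for Gad1 turned on the scaling. Under quantile normalization the 3 differences were 0.27, 0.75 and 0.73, and the last 2 passed (adjusted p = 0.017 and 0.0193), whereas under median scaling they were -0.20, 0.02 and -0.09. Median scaling moved the median of all probes as well, to -0.15, -0.33 and -0.32, so that Gad1 lay just under that median in depression-susceptible rats and above it in the other 2 groups.

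The log2 ratio of Gad1 to Gad2 within an array does not depend on a scaling that shifts all probes alike, and its change from control is given without its level. An effect that differs with signal strength would still enter the ratio, and this was not tested. Raw Gad1 signals were 31255 to 36680 on day 2 and 68485 to 75603 on day 1. Relative to the control mean the ratio was higher by 0.63, 1.71 and 1.42 in depression-susceptible, anxiety-susceptible and insusceptible rats. With other background correction or normalization these changes were 0.58 to 0.99, 1.47 to 2.25 and 1.16 to 2.04. All 4 stressed samples lay above both control samples in the ratio, whose difference between groups was not tested.

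**Figure D2:**
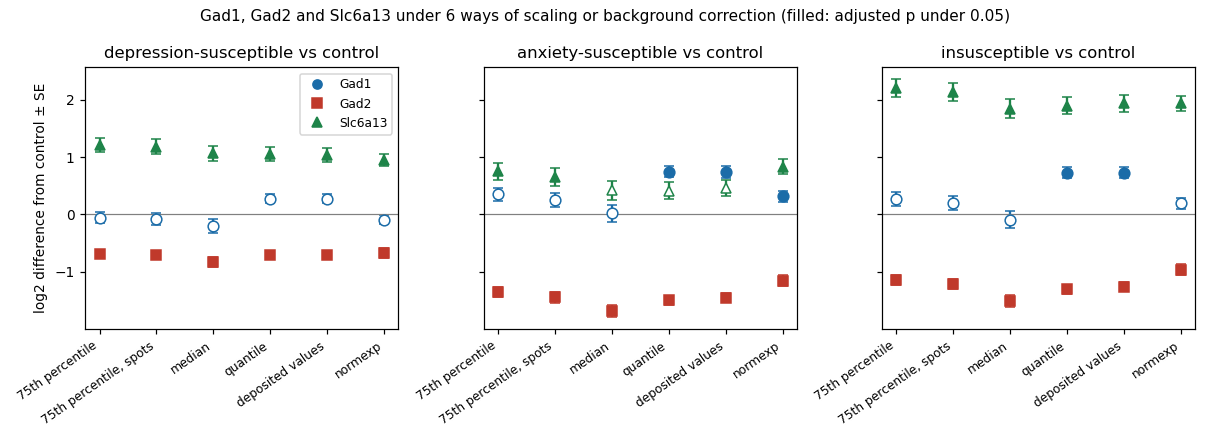
Log2 difference from control (± SE, limma on 6 samples) of Gad1, Gad2 and Slc6a13 under 6 ways of scaling or background correction, with filled symbols for an adjusted p under 0.05. Gad2 stays below 0 and filled throughout, Gad1 crosses 0 in depression-susceptible and insusceptible rats, and Slc6a13 in anxiety-susceptible rats is open under median scaling, quantile normalization and the deposited values.

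Slc32a1, the vesicular GABA transporter gene, was lower in the stressed groups by amounts that did not pass. Its level was 1.64, 1.68, 1.90 and 1.85 on the depression-susceptible arrays, 1.81, 1.81, 1.83 and 1.80 on the anxiety-susceptible arrays, and 1.52, 1.52, 1.54 and 1.55 on the insusceptible arrays, against 2.25, 2.19, 1.95 and 1.96 on the control arrays. No stressed array reached the lowest control array. Both groups on slides 1 and 2 were higher on slide 1, the depression-susceptible samples by 0.22 and the control samples by 0.26. The differences from control were -0.32 (SE 0.14, adjusted p = 0.231), -0.27 (SE 0.17, adjusted p = 0.288) and -0.55 (SE 0.17, adjusted p = 0.0817) in depression-susceptible, anxiety-susceptible and insusceptible rats. Within slides the depression-susceptible difference was -0.34 on slide 1 and -0.30 on slide 2. With the slide as a block over the averaged samples it was -0.32 and passed (SE 0.05, adjusted p = 0.0271), which is the 1 call of a member that this block changed. Under quantile normalization the anxiety-susceptible difference was -0.02, and under median scaling the insusceptible difference was -0.91 and passed (adjusted p = 0.0291). Leaving out 1 array or sample gave -0.45 to -0.19 in depression-susceptible rats, -0.40 to -0.14 in anxiety-susceptible rats and -0.68 to -0.42 in insusceptible rats, with no call.

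The GAT-2 gene Slc6a13 was higher in each stressed group than in control, most so in insusceptible rats. Its level was -3.48, -3.19, -3.55 and -3.53 on the depression-susceptible arrays, -3.96, -3.90, -3.86 and -3.87 on the anxiety-susceptible arrays, and -2.48, -2.26, -2.52 and -2.49 on the insusceptible arrays, against -4.61, -4.49, -4.72 and -4.76 on the control arrays. The order of the group levels from the lowest was control, anxiety-susceptible, depression-susceptible and insusceptible, which is not the reverse of the order for Gad2. Slc6a13 rose by 1.21 (SE 0.12, 2.31-fold, adjusted p = 0.0158, limma) in depression-susceptible rats, by 0.75 (SE 0.15, 1.68-fold, adjusted p = 0.037) in anxiety-susceptible rats and by 2.21 (SE 0.15, 4.62-fold, adjusted p = 0.00752) in insusceptible rats. The depression-susceptible difference was 1.01 on slide 1 and 1.41 on slide 2, and positions 3 and 4 differed from 1 and 2 by 0.07 on the anxiety-susceptible slide and by -0.13 on the insusceptible slide. The anxiety-susceptible call was lost under median scaling, at 0.42, and under quantile normalization, at 0.41. With the deposited values, at 0.46, and without the filter on dim probes, at 0.75, the anxiety-susceptible call was lost too. It was also lost without control replicate 1 (adjusted p = 0.0506), without depression-susceptible replicate 1 (adjusted p = 0.0627) and without any of the 4 averaged samples of slides 1 and 2 (adjusted p = 0.0648 to 0.0969). The depression-susceptible call was lost without the control sample of slide 2 or either depression-susceptible sample (adjusted p = 0.0615 to 0.0835), with a difference of 1.1 to 1.31.

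Slc6a11, the astrocytic GAT-3 gene, was near the lower limit of the array. It was well above background on 4 of 4 depression-susceptible, 3 of 4 anxiety-susceptible, 0 of 4 insusceptible and 4 of 4 control arrays, so its level in insusceptible rats is only an upper bound and no fold is given there. Levels ran from -6.91 to -6.66 in depression-susceptible, from -7.15 to -6.54 in anxiety-susceptible and from -6.90 to -6.61 in insusceptible rats, against -6.93 to -6.31 in control rats, and all groups overlapped. The difference from control was -0.09 (SE 0.13, 95% interval -0.47 to 0.29, adjusted p = 0.693) in depression-susceptible rats. In anxiety-susceptible rats the interval was -0.46 to 0.46 (adjusted p = 0.995). Another background correction, normexp, turned the values for anxiety-susceptible and insusceptible rats to 0.81 and 0.83 with a call in each, while the median of all probes moved to 0.19 and 0.22. In insusceptible rats 2 other settings made a call the other way, at -0.58 under quantile normalization (adjusted p = 0.0484) and at -0.55 with the deposited values (adjusted p = 0.04996). No direction is given for Slc6a11 on the slides of day 2.

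Abat, which encodes the degrading enzyme, lay in 2 sets by scan day. Its level was -2.07, -2.11, -2.08 and -1.90 on the depression-susceptible arrays, -2.42, -2.47, -2.40 and -2.57 on the anxiety-susceptible arrays, and -2.57, -2.45, -2.46 and -2.51 on the insusceptible arrays, against -1.88, -2.10, -2.20 and -2.13 on the control arrays. Groups overlapped within each day and not between days. The differences from control were 0.04 (SE 0.10, 95% interval -0.24 to 0.32), -0.39 (SE 0.12, adjusted p = 0.0901) and -0.42 (SE 0.12, adjusted p = 0.0752) in depression-susceptible, anxiety-susceptible and insusceptible rats, and none passed. Quantile normalization and median scaling called the last 2, at -0.56 and -0.71 in anxiety-susceptible rats and at -0.61 and -0.78 in insusceptible rats.

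**Figure D3:**
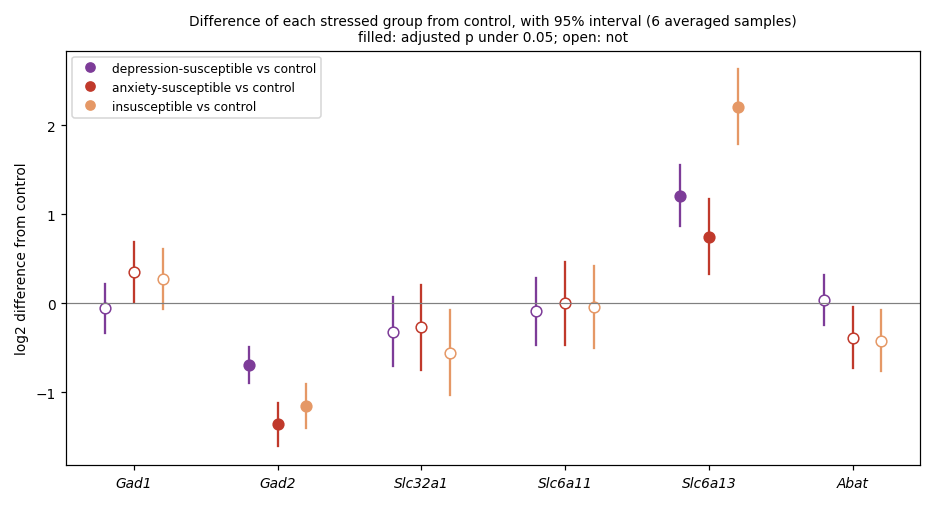
Log2 difference of each stressed group from control for the 6 genes, with the 95% interval from limma on 6 samples; filled points have an adjusted p under 0.05. The filled points are Gad2, below 0 in all 3 groups, and Slc6a13, above 0 in all 3.

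Of the 6 genes, which were chosen with earlier results of these data known, 1 rose and 1 fell in each comparison with control. In depression-susceptible rats 9.89% of all probes tested were called, 7.27% higher and 2.62% lower. In anxiety-susceptible rats these shares were 28.0%, 14.8% and 13.2%, and in insusceptible rats 28.9%, 17.1% and 11.8%, so that 2 of 6 is close to the background in those 2 groups. The median difference of the 6 genes was -0.07, -0.14 and -0.23 in depression-susceptible, anxiety-susceptible and insusceptible rats, beside -0.01, -0.01 and 0.04 over all probes. Over the 4 groups together, limma's F test passed for 22.0% of probes and, among the 6 genes, for Gad2 (adjusted p = 0.0128) and Slc6a13 (adjusted p = 0.0159).

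Between the stressed groups none of the 6 genes passed in the limma fit of 6 samples, where each such comparison has 1 sample on at least 1 side. For depression-susceptible against insusceptible rats 0.0672% of all probes were called, for anxiety-susceptible against insusceptible 0.0895% and for anxiety-susceptible against depression-susceptible 0.291%. At an unadjusted p under 0.05 the count of members was 3, 1 and 4 in these comparisons, beside 30.4%, 11.1% and 30.9% of all probes. With the 16 arrays as separate samples 5, 3 and 4 members were called, beside 61.7%, 36.0% and 61.8% of all probes. The log2 difference of Slc6a13 from insusceptible rats was -1.0 (SE 0.15, adjusted p = 0.0785) in depression-susceptible and -1.46 (SE 0.17, adjusted p = 0.13) in anxiety-susceptible rats. The log2 difference of Gad2 was 0.46 (SE 0.09, adjusted p = 0.0841) for depression-susceptible against insusceptible rats and -0.67 (SE 0.09, adjusted p = 0.0605) for anxiety-susceptible against depression-susceptible rats. For anxiety-susceptible against insusceptible rats, both scanned on day 2 but on different slides, Gad2 differed by -0.21 (SE 0.10, 95% interval -0.49 to 0.07) and Abat by 0.03 (SE 0.14, 95% interval -0.37 to 0.43).

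Another plasma membrane transporter gene, Slc6a12 (BGT-1), which carries betaine and GABA, was close to background. Its level was -6.63 and -7.03 in the depression-susceptible samples, -7.46 in the anxiety-susceptible sample and -6.05 in the insusceptible sample, against -8.11 and -7.84 in the control samples. It was well above background on 4, 1, 2 and 0 of the 4 arrays of these groups, so it entered the test only through the stressed groups, where it is high, and its calls are a description that supports nothing about Slc6a13. Control rats gave only an upper bound. The processed signal was at least 1.98-fold higher in depression-susceptible rats. For insusceptible rats, with 2 of 4 arrays well above background, and for anxiety-susceptible rats, with 1 such array, no fold is given. For this bound the signal of a control array was set no lower than the dimmest signal well above background on it. The bound was not tested. The calls are of the log2 differences without the bound, 1.14 in depression-susceptible (adjusted p = 0.0436, limma) and 1.92 in insusceptible rats.

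Of 20 further genes of glutamate supply, transport and degradation and of the GABA-B receptor, 17 were tested; Aldh5a1 and Glul are among those not found on the array by name. In depression-susceptible rats 1 rose (Slc6a12) and 0 fell, in anxiety-susceptible rats 0 rose and 2 fell, and in insusceptible rats 2 rose and 2 fell. Of all probes tested, 9.89%, 28.0% and 28.9% were called in these comparisons. The second gene that rose in insusceptible rats was the glutamine transporter gene Slc38a3, by 0.46 (adjusted p = 0.0354), and Slc38a1, another glutamine transporter gene, fell there by 0.43 (adjusted p = 0.0483); both were named after their values were seen. The median difference over the list was between -0.0025 and 0.0022 in depression-susceptible and anxiety-susceptible rats and 0.11 in insusceptible rats. Maob, an astrocytic monoamine oxidase that takes part in a second route to GABA, fell by 0.56 (SE 0.12, adjusted p = 0.0411) in anxiety-susceptible rats, and was at 0.04 and -0.32 in depression-susceptible and insusceptible rats. Slc1a1, the neuronal glutamate transporter EAAC1, fell by 0.41 in both anxiety-susceptible (SE 0.09, adjusted p = 0.0472) and insusceptible rats (SE 0.09, adjusted p = 0.0446) and was at -0.25 in depression-susceptible rats.

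Of 18 genes of the GABA-A receptor and its anchors, 17 were tested. Here 1 rose and 0 fell in depression-susceptible rats, 1 rose and 6 fell in anxiety-susceptible rats, and 1 rose and 6 fell in insusceptible rats, with medians of -0.23, -0.54 and -0.51. Of all probes tested, 7.27%, 14.8% and 17.1% were called higher and 2.62%, 13.2% and 11.8% lower in these comparisons. The medians over all probes were -0.01, -0.01 and 0.04. The level of Gabra4, the alpha-4 subunit, was 0.28 and 0.37 in the depression-susceptible samples, -0.66 in the anxiety-susceptible sample and -0.25 in the insusceptible sample, against 0.51 and 0.64 in the control samples. Gabra4 fell by 1.24 (SE 0.11, adjusted p = 0.011) in anxiety-susceptible and by 0.83 (SE 0.11, adjusted p = 0.0192) in insusceptible rats, and was at -0.25 (adjusted p = 0.176) in depression-susceptible rats. The gamma-1 subunit gene Gabrg1 fell by 1.30 (SE 0.12, adjusted p = 0.0113) and by 0.99 (SE 0.12, adjusted p = 0.0164) in anxiety-susceptible and insusceptible rats, and was at -0.34 in depression-susceptible rats. The theta subunit gene Gabrq fell by 2.73 (SE 0.40, adjusted p = 0.0227) and by 3.98 (SE 0.40, adjusted p = 0.0129) in these 2 groups and was at -0.71 in depression-susceptible rats, where its spot was left out as an outlier on 2 of the 4 arrays, as on 1 control array. The genes that rose, named after their values were seen, were the alpha-6 subunit gene Gabra6 in depression-susceptible rats, by 1.19 (SE 0.13, adjusted p = 0.0197), and the beta-1 subunit gene Gabrb1, by 0.37 (adjusted p = 0.0487) in anxiety-susceptible and by 0.50 (adjusted p = 0.0285) in insusceptible rats. Among the other genes that fell, also named after the fact, were the alpha-2 subunit gene Gabra2 in anxiety-susceptible rats, by 0.54 (adjusted p = 0.0334), and Nlgn2, an adhesion protein of inhibitory synapses, in insusceptible rats, by 0.52 (adjusted p = 0.0498). Gabra6 was well above background on 4 of 4 depression-susceptible and 1 of 4 control arrays and on none of the others. It thus entered the test mainly through the group where it is high, and its difference rests on a control level measured on 1 array.

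**Figure D4:**
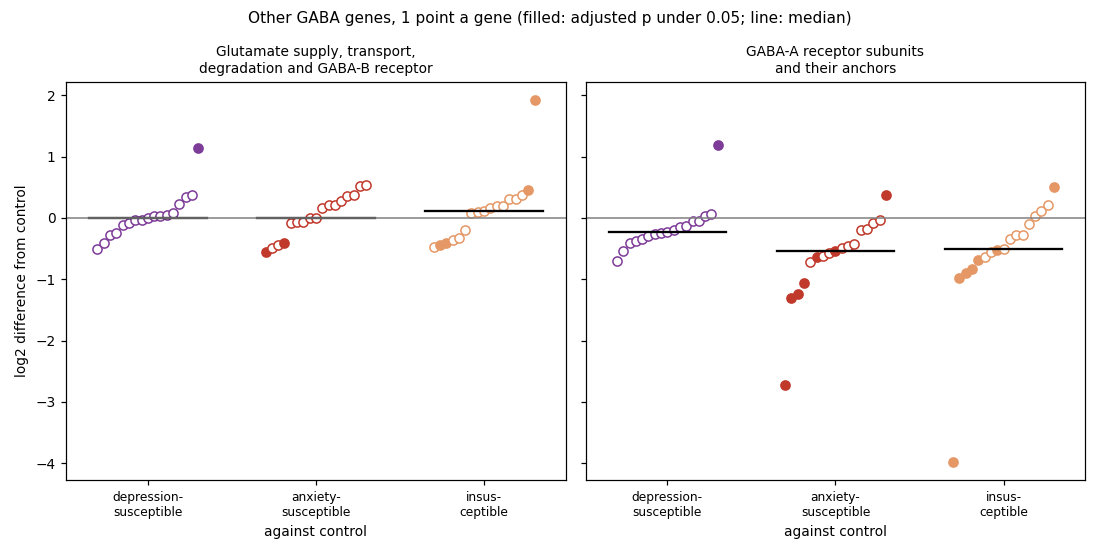
Log2 differences from control of 34 other GABA genes in the 3 stressed groups (17 in each panel), 1 point a gene in order of size, filled for an adjusted p under 0.05, with a line at the median. Most points of the right panel lie below 0 in anxiety-susceptible and insusceptible rats, and the 1 filled point of the left panel in depression-susceptible rats is Slc6a12.

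Markers of the cells that hold GABA genes were measured beside them. The counts of each marker list stand beside 9.89%, 28.0% and 28.9% of all probes called in depression-susceptible, anxiety-susceptible and insusceptible rats against control. Of 23 interneuron markers 20 were tested. In depression-susceptible rats 0 passed in the limma fit of 6 samples (6 at an unadjusted p under 0.05, 10 with the 16 arrays as separate samples, beside 29.4% and 49.3% of all probes). Pvalb, Sst and Vip differed there by -0.27, -0.40 and -0.08. They differed by -0.31, -0.09 and -0.11 in anxiety-susceptible rats and by -0.10, -0.54 and -0.09 in insusceptible rats, with no call. The genes that passed were named after their values were seen. In anxiety-susceptible rats Htr3a rose by 0.43 (adjusted p = 0.0393), and Npy, Cnr1 and Reln fell by 1.26, 0.70 and 0.63 (adjusted p = 0.0134, 0.0321 and 0.022). In insusceptible rats Htr3a rose by 0.47 (adjusted p = 0.0326) and Npy fell by 1.38 (adjusted p = 0.0122). The median over the list was -0.08, -0.08 and -0.16. The summed scaled signal of the list was 77.2 and 67.1 in the depression-susceptible samples, 72.9 in the anxiety-susceptible and 64.8 in the insusceptible sample, against 96.2 and 86.6 in the control samples. By this sum, in which bright genes weigh most, all 4 stressed samples lay below both control samples. The mean log2 level of the list was -0.37 and -0.48 in the depression-susceptible samples, -0.40 in the anxiety-susceptible and -0.50 in the insusceptible sample, against -0.25 and -0.43 in the control samples. By the mean, 1 depression-susceptible sample and the anxiety-susceptible sample lay between the control samples, and the part of these shifts in the Gad2 result was not tested. Markers of brain tissue at large were measured in every group. Of 9 general neuronal markers 8 were tested: none passed in depression-susceptible rats (4 at an unadjusted p under 0.05, 6 with 16 arrays), Syt1, Eno2, Map2 and Tubb3 fell in anxiety-susceptible rats, and Syt1, Stmn2, Eno2 and Map2 fell and Rbfox3 rose in insusceptible rats. The median over these 8 was -0.37, -0.74 and -0.63. Of 12 glutamatergic neuron markers 11 were tested. Of these 1, 2 and 1 fell and none rose in depression-susceptible, anxiety-susceptible and insusceptible rats. Wfs1 fell in all 3 groups (log2 differences -0.71, -1.60 and -1.51), while Slc17a7, Slc17a6 and Camk2a did not pass. Of 16 astrocyte markers 14 were tested, and Gfap, Aqp4 and Gja1 did not pass. None of the 14 passed in depression-susceptible rats (4 at an unadjusted p under 0.05, 9 with 16 arrays), Slc7a10 rose in anxiety-susceptible and insusceptible rats, and Gjb6 rose in insusceptible rats. These genes too were named after their values were seen, and their part in the results for the GABA genes was not tested.

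Markers of tissue around the hippocampus moved with the groups as well. Of 17 choroid plexus markers 15 were tested, and 14, 13 and 14 fell in depression-susceptible, anxiety-susceptible and insusceptible rats, with medians of -3.66, -1.72 and -3.83. Their summed scaled signal was 29.4 and 25.4 in the depression-susceptible samples, 96.6 in the anxiety-susceptible and 13.8 in the insusceptible sample, against 118 and 101 in the control samples. By group, Slc6a13 thus stood in the reverse order of the choroid plexus signal. Ttr, a defining marker of that tissue, differed by -1.48, 0.57 and -2.86 and Folr1, another, by -3.66, -1.72 and -3.55 in depression-susceptible, anxiety-susceptible and insusceptible rats, all called but Ttr in anxiety-susceptible rats. Of the genes that fell, 1 in depression-susceptible rats and 3 in insusceptible rats were not well above background on any array of that group, among them Kl in both, so their level there is an upper bound. With these at their bound the medians were -3.66 and -3.79. Lbp was the 1 gene of that list that rose, in anxiety-susceptible and insusceptible rats (by 0.62 and 0.95).

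Of 18 meningeal markers 13 were tested, with medians of 0.15, -0.40 and -0.02 in depression-susceptible, anxiety-susceptible and insusceptible rats. In depression-susceptible rats Lum rose and Igf2, Mgp and Ogn fell. In anxiety-susceptible rats 6 fell and none rose, and in insusceptible rats Aldh1a2, Col3a1 and Slc22a6 rose and Igf2 and Mgp fell. The summed signal of the 12 measured in all 6 samples was 32.3 and 29.2 in the depression-susceptible samples, 24.01 in the anxiety-susceptible and 34.2 in the insusceptible sample, against 43.2 and 39.9 in the control samples. Their mean log2 level was -0.59 and -0.66 in the depression-susceptible samples, -1.07 in the anxiety-susceptible and -0.57 in the insusceptible sample, against -0.51 and -0.69 in the control samples. By the sum every stressed sample lay below both control samples, and by the mean only the anxiety-susceptible sample did. Slc22a6 and Aldh1a2, given next, were picked after their values were seen. They do not stand for the list, whose median in insusceptible rats was -0.02 and in which Igf2 and Mgp fell there. The sizes of the falls are not given here, so the values that follow show only the rising side of the list. Slc22a6, an organic anion transporter gene, stood at -2.55 and -2.68 in the depression-susceptible samples, -2.57 in the anxiety-susceptible and -1.90 in the insusceptible sample, against -3.19 and -3.57 in the control samples. It rose by 1.48 (adjusted p = 0.018) in insusceptible rats and was at 0.77 (adjusted p = 0.0672) and 0.81 (adjusted p = 0.0502) in depression-susceptible and anxiety-susceptible rats. Aldh1a2, which makes retinoic acid, rose by 1.15 (adjusted p = 0.0128) in insusceptible rats and was at 0.40 and -0.29 in depression-susceptible and anxiety-susceptible rats. Genes of these lists that passed were named after their values were seen.

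Of 12 pericyte and endothelial markers 11 were tested. Kcnj8 rose in all 3 stressed groups (by 0.51, 0.80 and 0.70), and Pecam1 and Vtn rose in insusceptible rats. Their summed signal was 7.91 and 8.41 in the depression-susceptible samples, 6.97 in the anxiety-susceptible and 8.33 in the insusceptible sample, against 7.18 and 7.48 in the control samples. Of 9 red blood cell genes 7 were tested. In depression-susceptible rats 5 rose, with Hbb at 4.31, and Ahsp fell. In anxiety-susceptible rats Ahsp and Hbb-b1 fell, and in insusceptible rats 4 rose, with Hbb at 0.99, and Ahsp fell. The summed signal of these genes was 16.9 and 15.9 in the depression-susceptible samples, 0.647 in the anxiety-susceptible and 1.68 in the insusceptible sample, against 0.887 and 0.886 in the control samples. No tested marker was listed at 0 on any array, and the part of these shifts in the Slc6a13 result was not tested.

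**Figure D5:**
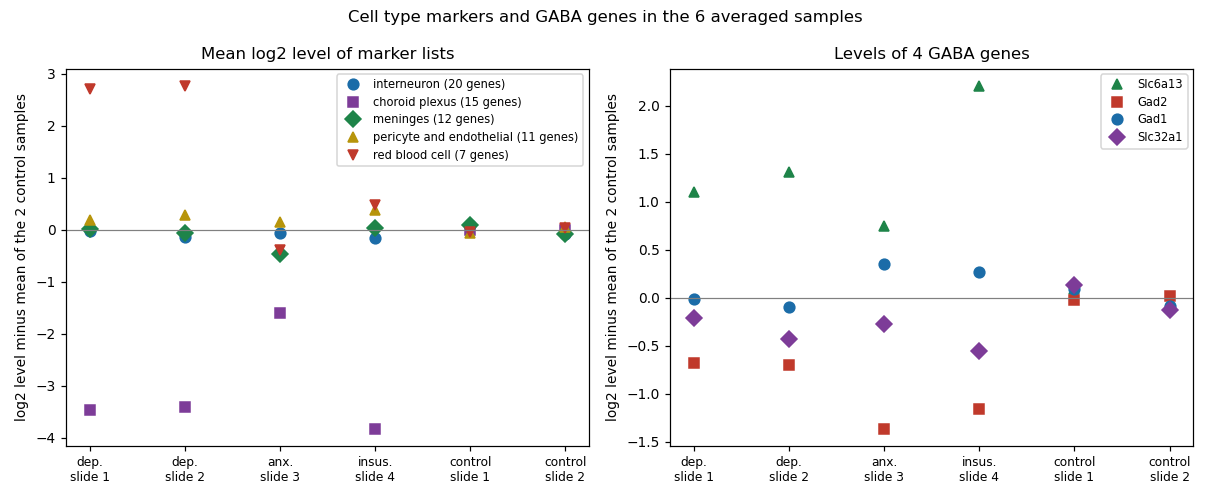
Mean log2 level of 5 marker lists, over genes measured in all samples (left) and levels of 4 GABA genes (right) in the 6 averaged samples, each minus the mean of the 2 control samples. Choroid plexus markers are lowest in the depression-susceptible and insusceptible samples, and red blood cell genes are high in the depression-susceptible samples.

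The genes whose levels ran most like each member were sought among tested genes whose SD was no less than 0.5 times its own, by Pearson's r over the 16 arrays, which rest on 6 samples. Gad2 ran most like Vopp1 (r = 0.992), Ppp2ca (0.991) and Trir (0.988), and 264 of 4452 genes had an r above 0.95 with it. Vopp1 stood at 2.72 and 2.66 in the depression-susceptible samples, 2.23 in the anxiety-susceptible and 2.40 in the insusceptible sample, against 3.19 and 3.22 in the control samples. Gad1 ran most like Ldha (0.986), Hsp90aa1 (0.985) and Actg1 (0.983), Slc32a1 like Tmem208 (0.979), Mbp (0.978) and Stbd1 (0.975), and Abat like Vps4b (0.968), Thrap3 (0.966) and Zfp777 (0.962). For Slc6a13 they were Nupr1 (0.970), Csgalnact1 (0.968) and Slfn4 (0.962), and 5 of 1980 genes passed 0.95. Nupr1 stood at -2.37 and -2.22 in the depression-susceptible samples, -2.70 in the anxiety-susceptible and -1.55 in the insusceptible sample, against -3.40 and -3.13 in the control samples. Slc6a11 had no close match, with Gucy1a2 (0.642) first. Among the 6 genes themselves Gad2 and Gad1 had an r of -0.777, Gad2 and Abat 0.762, and Slc32a1 and Slc6a13 -0.893.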

How the data were processed

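Per the file headers, the deposited scanner files were made with Agilent Feature Extraction 11.0.1.1 and give a processed signal intensity per spot. A deposited table of log2 values, with like quantiles in each column, correlated with the scanner's log2 values at 0.998 to 0.9999 and served as an alternative. Control and outlier spots were left out, spots of a probe averaged, log2 signals scaled to each array's 75th percentile, and 17880 probes well above background on at least 4 of 16 arrays tested (62.1% to 74.0% of probes per array were so). No spot was saturated. Of 15323 mRNA probes 14274 were named through RefSeq's table of GRCr8. The main tests used limma 3.58.1 in R 4.3.3 on 6 samples (2 residual degrees of freedom), with Benjamini-Hochberg adjustment over all tested probes. The fit of depression-susceptible against control was also run on simulated data with planted changes and independent noise. That run held no slide effects and did not cover the comparisons with 1 sample in a group. Counting error does not apply, and the number of arrays limits the precision.

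All members are named. Of the 2 GABA lists, the text names the 3 genes with the largest called difference in depression-susceptible or anxiety-susceptible rats, plus Slc6a12; some genes of these and the marker lists are not reported here by name; likeness and marker rules stand in the report. Members and lists were chosen with earlier results of these data known. Alternatives covered scaling, background, filter, deposited values, separate arrays, blocks and left-out arrays.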

Additional observations from a re-analysis of the deposited data

Results flagged for a closer look

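Of 24 sets of 4 arrays (6 genes in 4 groups), 2 held an array whose gap to its neighbour exceeded Dixon's 95% critical value as a share of the range; chance gives about 1 in 20. The lowest anxiety-susceptible array for Slc6a11 stood at -7.146, with a gap of 0.946 of the range, and the highest insusceptible array for Slc6a13 stood at -2.258, with a gap of 0.86. Both arrays lay on slides that hold 1 group.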

How the results depend on the processing

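Counts of called probes are given for depression-susceptible, anxiety-susceptible and insusceptible against control, then depression-susceptible against insusceptible, anxiety-susceptible against insusceptible and anxiety-susceptible against depression-susceptible. They were 1765, 4998, 5157, 12, 16 and 52. With 16 arrays as separate samples they were 8798, 12763, 13001, 11020, 6434 and 11030, with 5 members called in the anxiety-susceptible and insusceptible comparisons with control and 5, 3 and 4 in the last 3. The replicate block on 16 arrays gave 8179, 12379, 12601, 10434, 5550 and 10474, with 5, 5, 5, 3 and 4 members called from the second comparison on, and the slide as a random block gave 10228, 9955, 10176, 7128, 1905 and 7397, with 5, 5, 5, 2 and 4 members called in those comparisons. The slide as a block gave 6559 for depression-susceptible against control over averaged samples and 9571 over 16 arrays. Without a filter on dim probes the counts were 1016, 2399, 8138, 4166, 0 and 8, with 1 member called in the second and 1 in the fourth; for the 0, 2917 probes had an unadjusted p under 0.05. Median scaling gave 7602 and 7712 for anxiety-susceptible and insusceptible against control, with 4 members for insusceptible. Normexp gave 9424, 9609, 7063, 9 and 7003 from the second on, with 4 members in the second, 2 in the fourth and 3 in the sixth. Quantile normalization gave 885, 64 and 1853 in the last 3, with 5 members in insusceptible against control, 1 in the fourth and 1 in the sixth. The deposited values gave 398, 48 and 1483, with 5 members in insusceptible against control and 1 in the sixth. Probes well above background on all 16 arrays gave 33 and 842 in the last 2, with 1 member in the sixth.

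Left-out arrays or samples gave 407 to 1765, 970 to 5087, 1292 to 5307, 0 to 13, 0 to 18 and 0 to 54 probes, and 0 to 2, 1 to 2, and 2 members in the first 3 comparisons and 0 in the others. The share of calls that were higher was 73.5%, 52.9% and 59.3% against control, 52.5%, 18.2% and 19.0% under median scaling, 64.7%, 41.4% and 45.2% under quantile normalization, 70.0%, 40.1% and 49.6% with the percentile over spots, 64.4%, 44.7% and 47.9% with the deposited values, and 66.7%, 72.0% and 73.9% under normexp. Gad2 was called in all 12, 10 and 10 alternatives against control, from -0.83 to -0.67, -1.69 to -1.16 and -1.51 to -0.97. Slc6a11 turned to 0.81 and 0.83 under normexp in anxiety-susceptible and insusceptible rats, and was called at -0.58 and -0.55 in insusceptible rats under quantile normalization and with the deposited values. The cause of these changes was not tested. Signal over background limits Slc6a11 and Slc6a12, which were not well above background on all arrays.

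Normexp on the mean signal was not run; normexp with an offset of 50 on the background-subtracted signal, and the percentile over spots, were chosen after seeing the data. Averaging all probes of a gene changed nothing, with 1 probe each. Deviations from the group mean had an r of -0.555 to 0.135 over 24 pairs of same-numbered arrays, and of 0.376 to 0.533 over 8 same-slide pairs. No same-numbered pair shared a slide. Same-numbered depression-susceptible and control arrays lay on opposite slides (r of -0.555 to -0.435). The check therefore cannot tell whether the numbers pair the samples.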
